A study of Arabidopsis thaliana with 2 samples.

Results

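LEAFY (LFY) is the transcription factor that gives Arabidopsis thaliana meristems their floral identity, and its in vitro sites are described here at 10 genes that maintain the shoot meristem or set organs apart from it: WUS, CLV3, CLV1, STM, BOP1, BOP2, CUC1, CUC2, CUC3 and PUCHI. In DNA affinity purification sequencing, a tagged recombinant protein is mixed with genomic DNA fragments, those it binds are sequenced, and places where reads pile up are listed as peaks. On amplified DNA (ampDAP), the genomic DNA came from seedlings 2 weeks old and was copied by PCR, which removes cytosine methylation. On native DNA (DAP), sheared DNA was used directly, from seedlings 2 weeks old of a 35S::LFY line (CA26 #15), in which a strong, broadly active viral promoter drives LFY; the label of the amplified DNA names no transgene, so plant source and amplification cannot be told apart. In both, LFY carried Myc tags (5XMyC), was made by in vitro transcription and translation, and the plants had grown in long days on Murashige and Skoog medium of 0.5 strength.

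The data were 4882 ampDAP peaks and 22514 DAP peaks, 1 library and 1 list each, all 400 bp wide and with a position as their sole value. No peak height, score, p-value or read depth was given, so peaks could not be ranked, and unequal depth or thresholds may set the lists apart. A single library of each kind allows no test between them, and every value below describes these libraries without a replicate check. The members were the peaks that overlap a gene body, 3 kb upstream or 1 kb downstream of the 10 genes. The direction in which each gene is read was not used here, so peaks were collected from 3 kb on each side of the gene body. Peaks whose edge lies within 1 kb belong to the upstream and downstream rule whichever way the gene runs. Genes with such a peak are counted separately. Sides are called lower and higher by chromosome coordinate. This gave 9 of the 4882 ampDAP peaks and 25 of the 22514 DAP peaks. With 3 kb upstream and 1 kb downstream, the numbers would be 6 to 9 ampDAP peaks and 16 to 24 DAP peaks over all choices of gene direction. All positions are counted from 1 in TAIR10, the build in the submitters' processing notes.

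The shoot apical meristem keeps a pool of stem cells that supplies new organs. WUS, a homeodomain factor made in the organizing centre, promotes stem cell fate; the secreted peptide CLV3 and its receptor kinase CLV1 restrain WUS; and STM, a KNOX homeodomain factor, keeps meristem cells undifferentiated. Organs are set apart by boundary genes, among them the NAC factors CUC1, CUC2 and CUC3, the BTB-ankyrin cofactors BOP1 and BOP2, and PUCHI, an AP2/ERF factor that acts in floral meristem fate and bract suppression.

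Of the 10 genes, 7 had an ampDAP peak within 3 kb and 9 had a DAP peak within 3 kb. Among all 27444 protein-coding genes of the nuclear chromosomes, 32.6% had an ampDAP peak and 82.3% had a DAP peak at that distance. The DAP count of 9 lay near the background. The ampDAP count of 7 was above it (70.0%, exact Clopper-Pearson interval 34.8 to 93.3%). The members were chosen with earlier results of these data known, so no enrichment is read from this. With each peak given to the nearest protein-coding gene, 5 members had an ampDAP peak. The share of all protein-coding genes under that rule is not given here, and 32.6% is not its background. Within 1 kb, 4 genes had an ampDAP peak (CLV1, STM, BOP2 and CUC3) and 6 had a DAP peak (the same 4, BOP1 and CUC2). The background within 1 kb was 19.9% for ampDAP and 63.0% for DAP. Both lay inside the exact intervals of the member shares, 12.2 to 73.8% for ampDAP and 26.2 to 87.8% for DAP. With 3 kb upstream and 1 kb downstream and every choice of gene direction, the number of genes with a peak was 4 to 7 for ampDAP and 6 to 9 for DAP. No background share is given for that window. For 1 of the 2 possible directions only, WUS and PUCHI had peaks of either list, BOP1 had its ampDAP peak and CUC1 had its DAP peak.

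**Figure D1:**
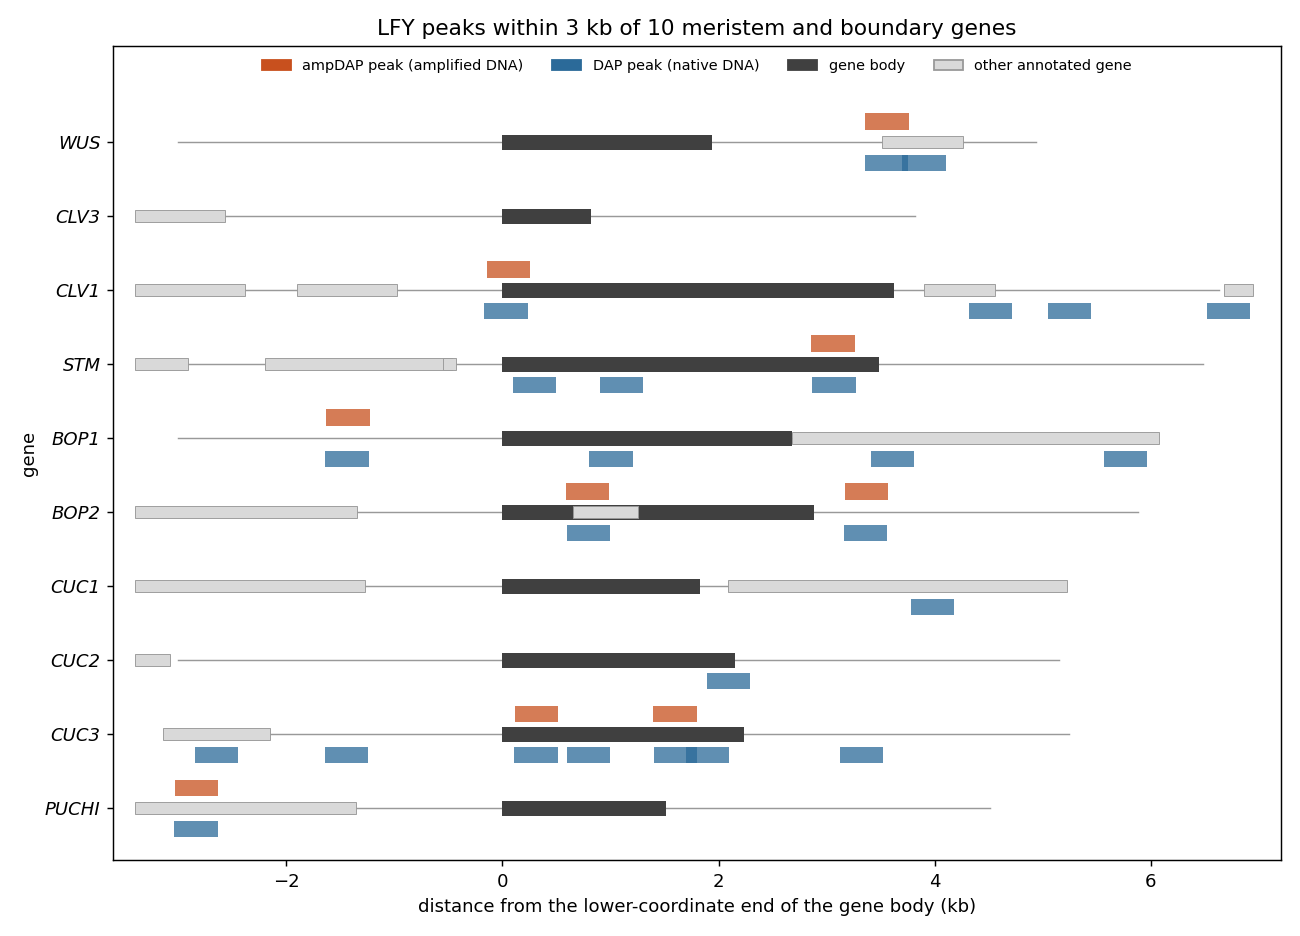
Map of the 10 genes. The x axis is the distance in kb from the lower-coordinate end of each gene body, each row is a gene, boxes above the line are ampDAP peaks and boxes below it are DAP peaks, all drawn to scale. Every one of the 9 ampDAP peaks has a DAP peak under it, and 16 of the 25 DAP peaks have no ampDAP partner. Lines end 3 kb from the gene body, and boxes of other genes are cut just beyond.

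All 9 ampDAP peaks at these genes had a DAP partner, meaning a peak of the other list that overlapped by at least 50% (9 of 9; exact Clopper-Pearson 95% interval 66.4 to 100%). Over the whole ampDAP list the share was 94.0%, and over ampDAP peaks within 3 kb of any protein-coding gene it was 95.7%. Partners were closely placed, with midpoints 2 to 21 bp apart and a median of 8 bp, against a median of 7 bp over all partnered ampDAP peaks. Conversely, 9 of the 25 DAP peaks at these genes had an ampDAP partner (36.0%, interval 18.0 to 57.5%). The share over all DAP peaks was 20.4%, which lay inside that interval, and it was 20.1% over DAP peaks within 3 kb of any protein-coding gene. Such intervals allow for counting error alone, and peaks at 1 gene are not independent of each other.

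At the stem cell genes the lists held 3 ampDAP peaks and 9 DAP peaks. WUS (AT2G17950, chr2:7808871-7810811) had no peak of either list in its body. Its ampDAP peak lay at chr2:7812230-7812629, 1419 bp beyond the higher end of the gene, and its DAP partner at chr2:7812228-7812627 was shifted by 2 bp. A second DAP peak at chr2:7812574-7812973 overlapped the first, with midpoints 346 bp apart, and had no ampDAP partner. All 3 overlapped the next gene, AT2G17960, by 250 bp for the ampDAP peak and by 248 and 400 bp for the DAP peaks, so the positions alone do not assign them to WUS.

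CLV3 (AT2G27250, chr2:11664978-11665797) was the 1 member with no peak within 3 kb in either list. Its nearest ampDAP midpoint was 17000 bp from the gene body and its nearest DAP midpoint 7126 bp. Of all protein-coding genes, 17.7% had no DAP peak within 3 kb, and 5.15% had their nearest DAP midpoint at least as far away as CLV3. The lists hold peaks above an unstated threshold, so a missing peak does not show missing binding.

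CLV1 (AT1G75820, chr1:28463344-28466971) had 1 ampDAP peak, at chr1:28463199-28463598, which straddled the lower end of the gene body. Its DAP partner at chr1:28463178-28463577 lay 21 bp away, the widest offset among the 9 pairs. The other 3 DAP peaks of CLV1 had no ampDAP partner and lay beyond the higher end, with midpoints 887, 1619 and 3091 bp from the gene body. The pair thus overlapped the lower end of the receptor gene, and the 3 unpartnered peaks lay beyond its higher end. Of the unpartnered peaks, the first overlapped the long non-coding RNA gene AT1G09577 and the third the non-coding RNA gene AT1G09583.

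STM (AT1G62360, chr1:23058582-23062063) carried all its peaks inside the gene body. The ampDAP peak at chr1:23061442-23061841 was centred 3059 bp from the lower end, at 87.9% of the body length, and its DAP partner was 9 bp away. Another pair of DAP peaks, at chr1:23058683-23059082 and chr1:23059486-23059885, lay toward the opposite end, centred at 8.6% and 31.7% of the body length, and had no ampDAP partner. At least 3 DAP peaks in the body, a cut-off set by the count at STM, were found in 5.04% of protein-coding genes of any body length. Whether these peaks fall in exons or introns was not analysed here.

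The BTB-ankyrin genes BOP1 and BOP2, which act redundantly in leaf and floral organ patterning, differed in which of their sites were listed on amplified DNA. BOP1 (AT3G57130, chr3:21147558-21150238) had 1 ampDAP peak and 4 DAP peaks. Its ampDAP peak at chr3:21145931-21146330 lay 1228 bp below the gene body, overlapped no annotated gene and had its DAP partner 9 bp away. The DAP peak in the body of BOP1 (chr3:21148365-21148764, centred 1006 bp from the lower end) and those centred 930 and 3088 bp beyond the higher end had no ampDAP partner. The peaks beyond the higher end both lay wholly in SDP1-LIKE, a gene whose near end is 4 bp from that of BOP1.

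BOP2 (AT2G41370, chr2:17237727-17240609) had 2 ampDAP peaks and 2 DAP peaks, and every one was partnered. The ampDAP peak in the body (chr2:17238318-17238717) was centred 790 bp from the lower end, with its DAP partner 9 bp away, and also overlapped AT2G41375, a protein-coding gene annotated inside BOP2. The other ampDAP peak (chr2:17240899-17241298) was centred 489 bp beyond the higher end, with its DAP partner 8 bp away, and overlapped no other gene. In the DAP list, BOP1 and BOP2 therefore each had a peak in the body and another within 1 kb of the higher end, and those of BOP2 alone had ampDAP partners. Since there is 1 library per list, this difference between the paralogs was not tested. Gene direction was not used, so the higher end may not be the same end of both genes. Over all DAP peaks, 20.4% had an ampDAP partner. At least 2 ampDAP peaks within 3 kb were listed for 6.57% of protein-coding genes, a class that among the members held BOP2 and CUC3.

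**Figure D2:**
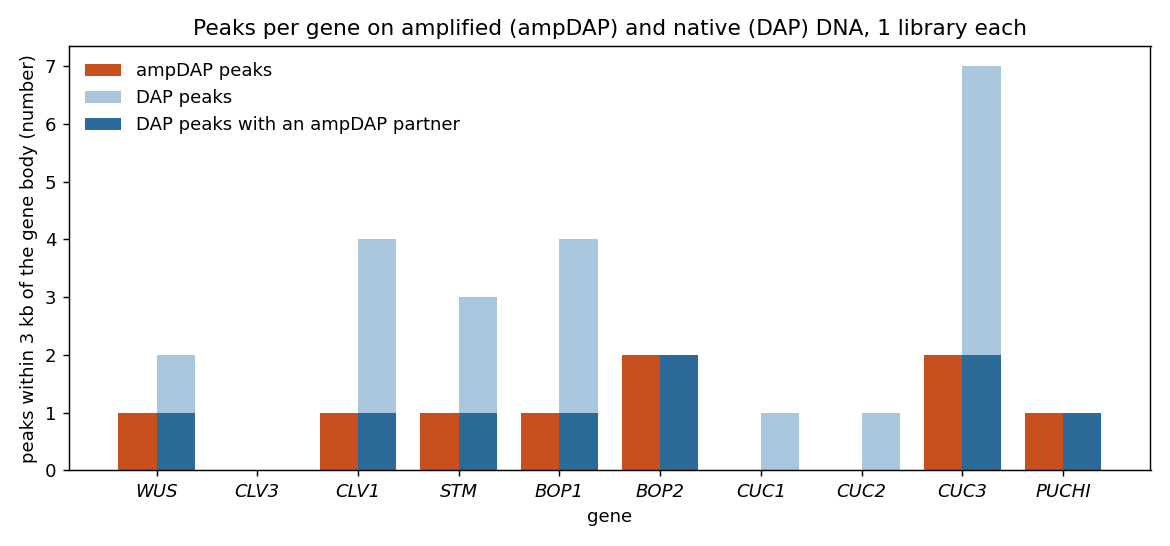
Number of peaks within 3 kb of each gene body, with ampDAP peaks as left bars and DAP peaks as right bars, the dark part of the right bar being DAP peaks with an ampDAP partner. CUC3 has the most DAP peaks (7), BOP2 and CUC3 have 2 ampDAP peaks each, and CLV3 has none.

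The NAC boundary genes, which keep neighbouring organs from fusing, ranged from 1 to 7 DAP peaks. CUC3 (AT1G76420, chr1:28671806-28674045) had 2 ampDAP peaks, both inside the gene body, at chr1:28671920-28672319 and chr1:28673204-28673603, with DAP partners 2 and 4 bp away. Next to each of these pairs stood a DAP peak that had no ampDAP partner, 484 bp and 299 bp from the partnered DAP midpoint. The remaining 3 DAP peaks flanked the gene, centred 2643 and 1440 bp below its lower end and 1081 bp beyond its higher end. Only the last of these lay within 1 kb of the gene body, by its edge at 882 bp. The peak farthest below lay wholly in ATL8; the others overlapped no other gene.

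The count of 7 DAP peaks at CUC3 was matched or exceeded by 0.732% of protein-coding genes, its 4 DAP peaks in the body by 1.39%, and its 2 ampDAP peaks in the body by 1.13%. These shares were looked up after the counts had been seen. With 3 kb upstream and 1 kb downstream, CUC3 had 7 DAP peaks if its lower side is upstream and 5 if its higher side is. The 0.732% therefore holds for equal flanks only.

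CUC1 and CUC2, which overlap with CUC3 in function, had no ampDAP peak within 3 kb and 1 DAP peak each. The DAP peak of CUC2 (AT5G53950, chr5:21901704-21903854) was at chr5:21903598-21903997, centred at 97.3% of the body length, and overlapped no other gene. That of CUC1 (AT3G15170, chr3:5109782-5111608), at chr3:5113562-5113961, lay 1954 bp beyond the higher end and wholly inside AT3G15180. The nearest ampDAP midpoints were 19004 bp from CUC1 and 19157 bp from CUC2. Among the NAC genes, ampDAP peaks within 3 kb were listed at CUC3 only, where 32.6% of all protein-coding genes had such a peak. Nothing is read from this difference among the NAC genes.

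PUCHI (AT5G18560, chr5:6164526-6166040) had 1 ampDAP peak, at chr5:6161494-6161893, and 1 DAP peak, at chr5:6161492-6161891, with midpoints 2 bp apart. Both lay on the lower side, 2633 and 2635 bp from the gene body, and wholly inside AT5G18550.

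Gene bodies of 4 of the 10 members held an ampDAP peak and those of 6 held a DAP peak, where the backgrounds were 12.9% and 47.1% of protein-coding genes. By position, 11 of the 25 DAP peaks overlapped the body of a member, and 5 of these 11 had an ampDAP partner. Of the 14 DAP peaks in the flanks, 4 had one. The exact 95% intervals of these shares, 16.7 to 76.6% for bodies and 8.39 to 58.1% for flanks, overlapped. Both held 20.4%, the share of all DAP peaks with an ampDAP partner. Neither the share of DAP peaks in bodies nor the partner shares by position were computed over all protein-coding genes. Another protein-coding gene was overlapped by 2 of the 4 flanking ampDAP peaks and 7 of the 14 flanking DAP peaks. The same share over the flanks of all protein-coding genes was not computed, so nothing is read from these counts.

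Counted over windows, the members had 1.08 ampDAP peaks and 3.01 DAP peaks per 10 kb. Over the windows of all protein-coding genes, which overlap one another, these densities were 0.48 ampDAP peaks and 2.31 DAP peaks per 10 kb. The median member had 1 ampDAP peak and 2 DAP peaks, and the median protein-coding gene had 0 ampDAP peaks and 2 DAP peaks. At least 3 DAP peaks were listed for 4 of the 10 members (CLV1, STM, BOP1 and CUC3) and 31.2% of protein-coding genes, and at least 4 for 3 members and 15.1% of genes. Window lengths were alike, with a median of 8196 bp for members and 8078 bp for protein-coding genes.

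**Figure D3:**
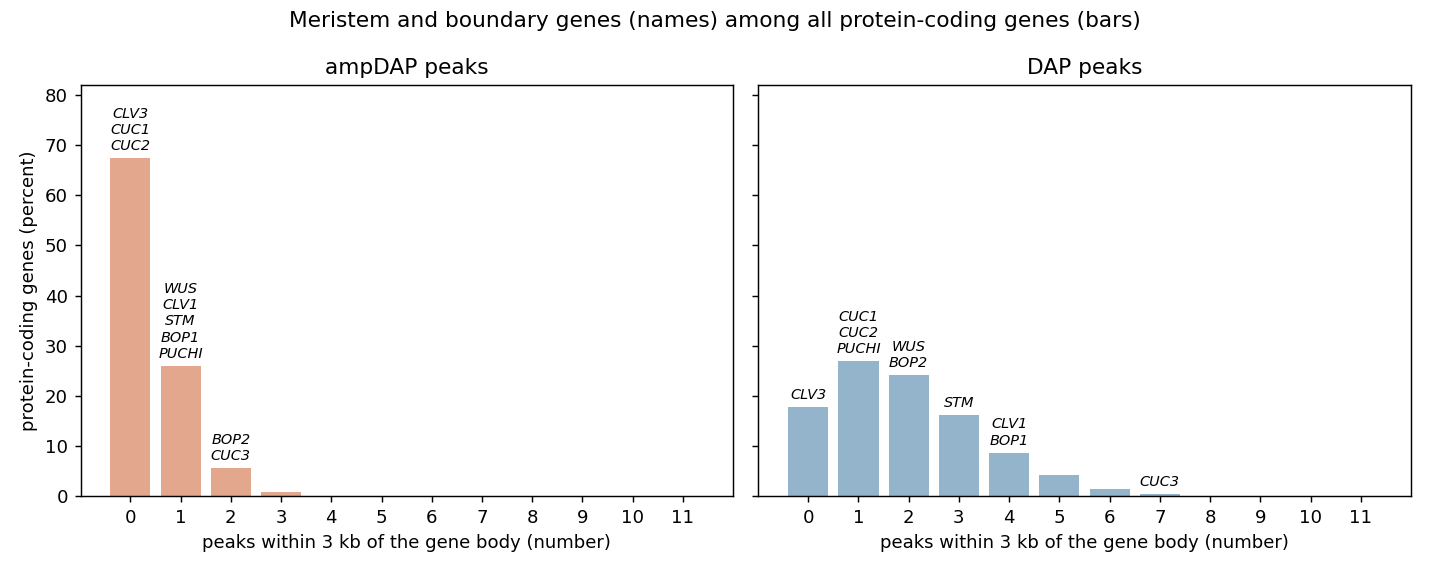
Share of protein-coding genes (bars, percent) by the number of peaks within 3 kb, for ampDAP at the left and DAP at the right, with the 10 members named above the bar of their own count. The members are spread over the DAP distribution from 0 (CLV3) to 7 peaks (CUC3), and 3 of the 10 (CLV3, CUC1 and CUC2) share the ampDAP class of 0 peaks with 67.4% of genes.

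Counts within 10 kb of the gene bodies, which include the peaks within 3 kb, ranged from 0 to 5 for ampDAP and from 2 to 9 for DAP. All 10 members thus had a DAP peak within 10 kb, as had 97.4% of protein-coding genes, and 4 (CLV1, STM, BOP1 and CUC3) had at least 8, as had 14.9%. At WUS both DAP peaks lay within 3 kb, and at CUC3 all but 1 of the 8 did. STM had 5 ampDAP peaks and 8 DAP peaks within 10 kb, and all 5 ampDAP peaks had a DAP partner. Outside the 3 kb window these were a pair centred 4478 bp (ampDAP) and 4494 bp (DAP) beyond the higher end, clear of any protein-coding gene, a pair in ALE1 and 2 pairs in AT1G62330. At least 5 ampDAP peaks within 10 kb were found for 0.466% of protein-coding genes, a share looked up after the count at STM had been seen. BOP2 had 4 ampDAP peaks and 7 DAP peaks within 10 kb. At least 4 ampDAP peaks, a cut-off set by the count at BOP2, occurred for 2.32% of protein-coding genes.

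CLV3, CUC1 and CUC2 had no ampDAP peak within 10 kb. Every other member had one, as had 62.8% of protein-coding genes, and nothing is read from the absences. CLV3, CUC1 and CUC2 had 2, 2 and 5 DAP peaks at that distance. CUC2 had 3 DAP peaks outside the 3 kb window beyond its higher end, centred 3254, 5100 and 9539 bp away, that overlapped no protein-coding gene and had no ampDAP partner.

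The other genes of meristem maintenance and organ boundaries were taken as a list of 45 genes. Of these, 18 had an ampDAP peak within 3 kb (40.0%, against 32.6% of protein-coding genes) and 36 had a DAP peak (80%, against 82.3%). The list includes 3 microRNA genes, which are not protein-coding. Among genes of every type, the shares were 29.7% for ampDAP and 75.7% for DAP. The median gene of the list had 2 DAP peaks, the same as the median protein-coding gene. Of its 94 DAP peaks, summed over genes, 21 had an ampDAP partner, beside a share of 20.4% over all DAP peaks.

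The groups within the list are small, and their counts are given beside the same shares of protein-coding genes, 32.6% for ampDAP and 82.3% for DAP, with nothing read from their differences. In CLAVATA signalling 4 of 8 genes had an ampDAP peak (50%) and all 8 had a DAP peak (100%). PLL1, a phosphatase gene that acts downstream of the receptors, had the most, with 1 ampDAP peak and 6 DAP peaks. The phosphatase gene POL, the pseudokinase gene CRN and the receptor gene BAM3 had 1 ampDAP peak and 3 DAP peaks each. CLV2, BAM1 and BAM2, which encode receptors, had no ampDAP peak and 4 DAP peaks each. All 4 ampDAP peaks of this group overlapped gene bodies, and the ampDAP peak of CLV1 straddled an end of its body. Genes of other groups, among them KNAT2, WOX3 and PTL, also had ampDAP peaks in their bodies. The share of all ampDAP peaks that overlap a gene body is not given here, so nothing is read from this.

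Among the KNOX and BELL homeodomain genes, which include relatives and partners of STM, 2 of 6 had an ampDAP peak (33.3%) and 5 of 6 had a DAP peak (83.3%). ATH1, a BELL gene, had 2 ampDAP peaks and 4 DAP peaks, and KNAT2, a KNOX gene, had 1 peak of each list. Of the 9 WOX and HAM genes, relatives and partners of WUS, 4 had an ampDAP peak (44.4%) and 6 had a DAP peak (66.7%). WOX3 had 2 ampDAP peaks, both in its body, and 4 DAP peaks. WOX5 and HAM3 had 1 ampDAP peak and 2 DAP peaks each, and HAM2 had 1 of each list.

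Of the 9 other boundary genes, 3 had an ampDAP peak (33.3%) and 6 had a DAP peak (66.7%). LSH3 had 2 ampDAP peaks and 1 DAP peak, and its ampDAP peak 795 bp below the body had no DAP partner. The MYB genes LOF1 and LOF2 had 4 DAP peaks each, of which 1 at LOF2 and none at LOF1 had an ampDAP partner. JLO, a LOB-domain gene, had 4 DAP peaks and no ampDAP peak, and PTL, a trihelix gene, had 1 ampDAP peak and 2 DAP peaks. Among 7 genes of leaf and lateral organ development, 5 had an ampDAP peak (71.4%, against 32.6% of protein-coding genes) and 6 had a DAP peak (85.7%, against 82.3%). DRNL had 2 ampDAP and 3 DAP peaks, AIL6 had 1 ampDAP and 4 DAP peaks, ANT and AS2 had 1 ampDAP and 2 DAP peaks each, and AIL7 had 1 of each list.

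None of the 3 genes for miR164, the microRNA that targets CUC1 and CUC2 transcripts, had an ampDAP peak, and 2 of them had a DAP peak. Among genes of every type, 29.7% had an ampDAP peak within 3 kb and 75.7% had a DAP peak. With 3 genes, nothing is read from a comparison with these shares. MIR164A had 4 DAP peaks, the nearest 159 bp from its annotated hairpin gene. The 3 remaining meristem genes (ULT1, ER and AGO10) likewise had DAP peaks, 7 in all, and no ampDAP peak.

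**Figure D4:**
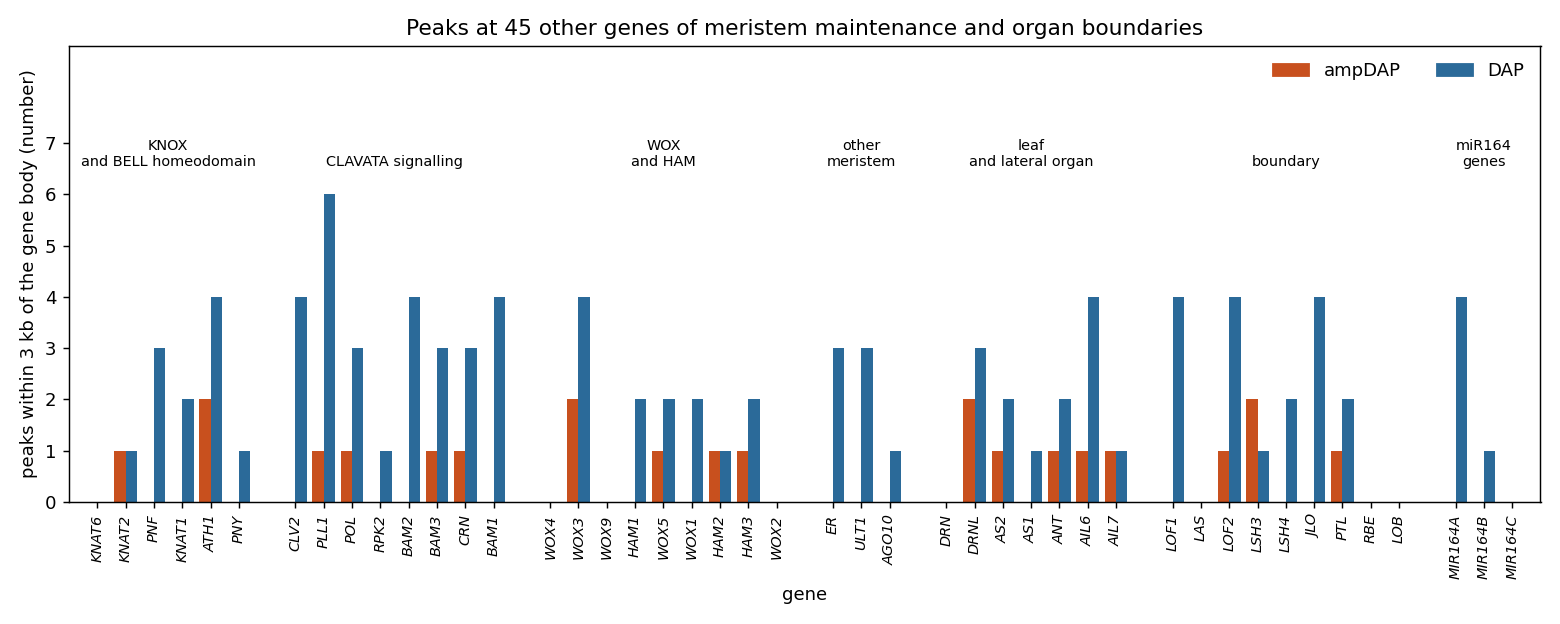
Number of peaks within 3 kb of each of 45 other genes of the meristem and its boundaries, grouped by role, with ampDAP peaks as left bars and DAP peaks as right bars. PLL1 has the most DAP peaks (6), ATH1, WOX3, DRNL and LSH3 have 2 ampDAP peaks each, and 9 genes have no DAP peak.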

How the data were processed

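The authors deposited 1 list of peak intervals per kind of DNA (chromosome, start and end), with no score or p-value. The submitters' processing notes name Bowtie2, SAMtools, MACS2 and TAIR10; roles, settings, thresholds and any merging are not given in the sources used here. All intervals were 400 bp wide, which fixes the midpoint as each peak's position. The members and lists were chosen with earlier results of these data known.

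Gene positions came from a RefSeq table of TAIR10.1, whose nuclear chromosomes are those of TAIR10. Peaks were counted for a gene when at least 1 bp overlapped its body or 3 kb on each side. A partner overlapped by at least 50% of the shorter peak, which means midpoints at most 200 bp apart. All 45 list IDs matched their symbols. Of these genes, those with an ampDAP peak and the 5 with the most DAP peaks (ties included) were named. Shares have exact Clopper-Pearson 95% intervals (SciPy 1.17.1). Counting was tested on simulated data. Gene direction was not used, so the planned upstream and downstream windows were replaced by windows of equal flanks; the planned motif search was not run, and sequences are not shown.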

Additional observations from a re-analysis of the deposited data

How the results depend on the processing

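Of 47 values recomputed under other settings, 42 stayed within 1.5 times the reported count or inside the 95% interval of the reported share, and 5 did not. With 1 kb on each side, 4 member genes had an ampDAP peak in place of 7, and 15 DAP peaks lay in member windows in place of 25. With each peak given to the nearest protein-coding gene, 16 DAP peaks remained with a member. With genes of every type as the background, 29.7% had an ampDAP peak and 75.7% had a DAP peak. A change of exactly 1.5 times counted as within. Member genes with a DAP peak fell from 9 to 6 with 1 kb on each side, as did ampDAP peaks in member windows. The flank widths, the sides taken as upstream and the nearest-gene rule were chosen after the data had been seen. The share of member DAP peaks with an ampDAP partner (36.0%) ranged from 32.0 to 44.0% over 9 alternatives. Its 95% interval of 18.0 to 57.5% was wide, so staying inside it was a weak check. The planned upstream widths, assignment to the nearest gene start and the shorter motif were not run, since they need gene direction or sequence. No paired analysis was possible because there was a single library of each kind, so no replicate could be left out either. Unknown depth and thresholds limit every comparison between the lists.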
